A study of Mus musculus with 12 samples.

Results

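The major histocompatibility complex (MHC) genes of the mouse are described here across microdissected hypertrophic cartilage of 2 mouse models of chondrodysplasia and their wildtypes. Members were the array probes annotated with a gene name that starts with H2-, or with the name B2m, Tap1, Tap2, Tapbp, Cd74 or Ciita. They came to 41 of the 27962 gene names on the array, and to 63 of its 41174 probes that were not controls. No probe carried the name Ciita. The class II transactivator is annotated on the array under the older name C2ta, so it is not counted among the 63. The hypertrophic zone of the tibial growth plate was taken from 14-day-old mice in 4 groups of 3 mice, and each mouse had its own array. The groups were homozygous Schmid mice, which carry a missense change knocked into the collagen X gene Col10a1, their wildtype, of the Schmid background, Cog mice (ColXTgcog), in which the Col10a1 promoter drives a thyroglobulin that misfolds, and their wildtype, of the Cog background. Cog mice with 1 and with 2 copies of the transgene were not told apart. The sources used here do not name the strains of the backgrounds, so the MHC haplotypes are not known, and a probe designed on another haplotype can read a sequence difference as a difference in level.

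MHC class I molecules pair a heavy chain, encoded by the H2-K, H2-D, H2-Q, H2-T and H2-M genes, with beta-2 microglobulin, and present peptides made in the cytosol to CD8 T cells and natural killer cells. The TAP transporter and tapasin load them in the endoplasmic reticulum. Class II molecules are made mainly by antigen-presenting cells, are held by the invariant chain Cd74 until they reach endosomes, and exchange peptides there with the help of the DM proteins. Most nucleated cells make class I molecules, and interferons raise the amount of both classes.

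The class I genes resemble each other, so the sequences of the probes were examined first. Each probe has 60 bases. Among all pairs of member probes, 4 pairs shared an unbroken run of at least 20 bases, 3 of them between genes of different names, and 13 of the 63 probes list more than 1 RefSeq transcript in the array annotation. The sequences below are those of class I probes on which the comparisons turn, with capitals for a run that another member probe also holds. The capitals in H2-Q10 and H2-Q5 are the same 35 bases, and those in H2-T23 are 28 bases that the H2-Q7 probe shares. The probes of H2-Q2, H2-T22 and H2-D1 share no run of 20 bases with another member. Probes were compared with each other only and not with the transcripts of other class I genes, so a probe without a shared run may still read several.
H2-Q10: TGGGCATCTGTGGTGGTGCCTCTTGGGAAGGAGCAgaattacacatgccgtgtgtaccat
H2-Q5: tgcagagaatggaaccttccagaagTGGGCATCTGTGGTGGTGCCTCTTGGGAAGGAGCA
H2-T23: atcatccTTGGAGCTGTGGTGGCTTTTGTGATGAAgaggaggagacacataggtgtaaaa
H2-Q2: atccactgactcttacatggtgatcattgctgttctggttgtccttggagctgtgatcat
H2-T22: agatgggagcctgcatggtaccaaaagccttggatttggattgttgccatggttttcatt
H2-D1: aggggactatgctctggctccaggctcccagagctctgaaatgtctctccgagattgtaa
In the annotation of the array (build mm7) the H2-Q10 probe lies at chr17:33574106-33574165 on the plus strand and the H2-Q2 probe at chr17:33440548-33440607 on the plus strand. The other 4 lie on chromosome 17 as well, and 54 of the 63 probes do. The H2-Q10 probe also lists transcripts of H2-Q1, H2-Q6 and H2-Bl, and the H2-D1 probe lists 3 transcripts. The level of such a probe may hold RNA of more than 1 class I gene. Of the 3 H2-Bl probes, A_51_P247114 and A_52_P560113 lie on an unplaced sequence 30 bases apart and have these 30 bases in common, so they are not independent measurements.
H2-Bl: GCTCAAATCTTTGAGCTGAGGGTTGATTAG

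Signals are given as log2 of the background-corrected, quantile normalised intensity. A log2 difference of 1 is a 2-fold change, and a fold change below the wildtype is written as a negative number. A probe was called at a Benjamini-Hochberg adjusted p of 0.05 or less in limma, over all 41174 probes, together with a fold change of at least 2. Of the members, 40 probes of 25 genes were well above background on all arrays of at least 1 group, and 17 probes of 16 genes on no array. Between 58.9 and 61.8% of spots were well above background on the Schmid arrays and between 39.6 and 59.4% on the others, and the negative control spots of Schmid had medians of 202 to 617, against 977 to 1895 elsewhere. All 3 Schmid arrays lay on a slide of their own, so slide and genotype cannot be told apart for them. The brighter thyroglobulin probe, annotated Tgn, was 7.90 higher (log2) in Cog than in its wildtype, and all 6 chondrocyte markers measured were above background on all 12 arrays.

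In Schmid cartilage, probes of many class I heavy chain genes gave a higher signal than in the wildtype. Of 38 heavy chain probes, 12 were called higher than in the wildtype of the same background and none lower, and they belong to H2-K1, H2-D4, H2-Q1, H2-Q2, H2-Q7, H2-Q10, H2-T10, H2-T22, H2-T23, H2-M3 and H2-Bl. The partner chain B2m and the loading genes Tap1, Tap2 and Tapbp were not called in either direction. The single member called lower was H2-DMb1, of the class II pathway. The 12 higher calls are 19.0% of the 63 members, against 5.78% of all probes, and the single lower call is 1.59%, against 4.69% of all probes. The scanner software's processed signal was used as an alternative, in place of the background correction used here. Relative to the 75th percentile of each array, this signal had 12 members called higher and 4 lower, against 7.24 and 9.79% of all probes. After quantile normalization it had 13 and 4, against 7.01 and 9.68% of all probes. The median log2 change of the 38 heavy chain probes was 0.69 and that of all probes -0.06. The hypertrophic zone as dissected holds cells of several types, and a change in the number of cells of a type cannot be told apart from a change in the RNA of each cell.

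**Figure D1:**
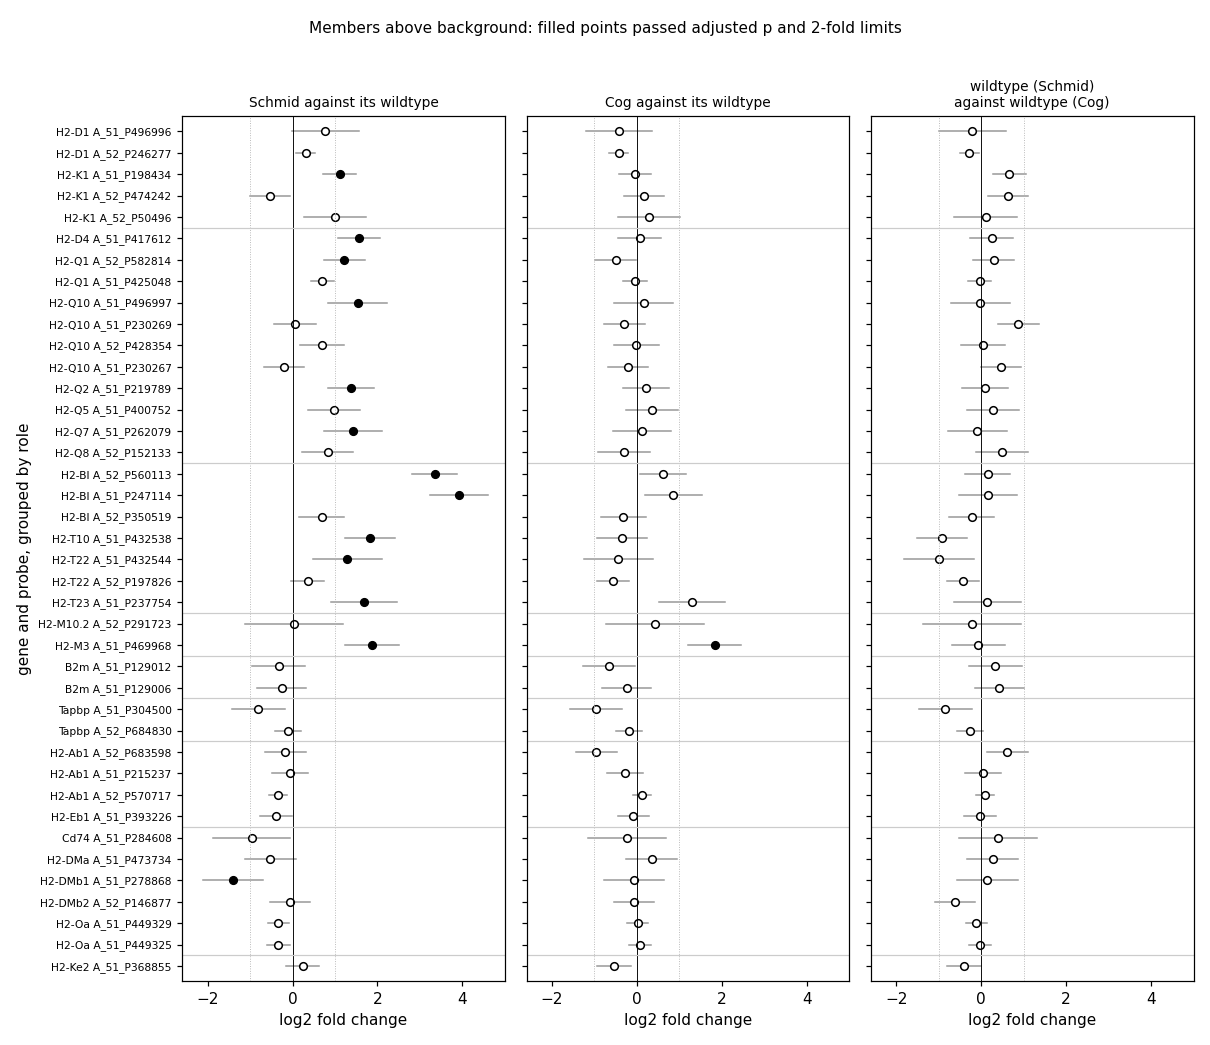
Log2 fold change (x axis) of the 40 member probes that were well above background on all arrays of at least 1 group, by role from top to bottom, in Schmid, in Cog and between the wildtype groups. Points are limma estimates from 3 arrays a group, lines are 95% confidence intervals, dotted lines mark 2-fold, and filled points passed both limits. The heavy chain probes at the top sit to the right of 0 in Schmid in most rows and around 0 in Cog. Some of them, such as H2-D4, were above background on all arrays of Schmid only, so the choice of probes can favour those high in Schmid. Over all 38 heavy chain probes, shown or not, the median log2 change was 0.69 in Schmid and 0.04 in Cog.

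The largest change was in H2-Bl, a class I-like gene of the T region. The brighter of its overlapping probes (A_52_P560113) read 12.64, 13.21 and 13.19 in Schmid and 9.33, 10.00 and 9.66 in the wildtype, 10.32, 9.78 and 10.28 in Cog and 9.83, 9.24 and 9.45 in the wildtype of the Cog background. All 3 Schmid arrays stood above the other 9, and the probe was well above background on 2 of the 3 arrays of their wildtype. The Schmid change was 3.35 ± 0.24 (log2, SE), a 10.2-fold change with an adjusted p of 4.81e-05. Probe A_51_P247114 did not rise well above background on a wildtype array of either background. Its signal was at least 13.0-fold higher in the Schmid mice (adjusted p of 7.77e-05 in limma). The third probe, A_52_P350519, lies elsewhere in the annotated transcript and shares no run of 20 bases with them. It was above background on all Schmid arrays and was 0.68 higher, which was not called (adjusted p of 0.0606). The 3 probes of this gene therefore differ in size of change.

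H2-K1 and H2-D1 encode the classical class I heavy chains. The brightest H2-K1 probe (A_51_P198434) read 16.98, 16.70 and 16.75 in Schmid and 16.06, 15.40 and 15.63 in its wildtype, 14.97, 14.85 and 15.15 in Cog and 15.21, 14.93 and 14.96 in its wildtype. Schmid did not overlap its wildtype, and the change was 1.11 ± 0.17 (log2, SE), a 2.16-fold change with an adjusted p of 0.0018. Without wildtype replicate 2 the change was 0.97 (adjusted p of 0.00777), just under the 2-fold limit. Cog overlapped its wildtype, with a change of -0.04 (95% interval -0.43 to 0.34). The other 2 H2-K1 probes went opposite ways in Schmid and were not called, A_52_P50496 by 1.001 and A_52_P474242 by -0.53. The brighter H2-D1 probe (A_51_P496996) read 14.19, 13.76 and 13.72 in Schmid and 13.97, 12.65 and 12.73 in its wildtype. A single wildtype array, replicate 1, lay within the Schmid range. The change of 0.78 was not called (adjusted p of 0.131). In Cog and its wildtype this probe read 12.97, 12.90 and 12.84 and 13.95, 12.97 and 13.04, a change of -0.42 that was not called.

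H2-T23, the gene of the Qa-1 molecule that presents leader peptides of other class I chains to natural killer cell receptors, was called higher in Schmid and just missed the limit in Cog. It read 13.67, 13.42 and 13.17 in Schmid and 12.35, 11.17 and 11.68 in its wildtype, 13.29, 12.97 and 12.40 in Cog and 12.22, 11.26 and 11.30 in its wildtype. Neither mutant overlapped its own wildtype. The Schmid change was 1.68 ± 0.35 (log2, SE), a 3.21-fold change with an adjusted p of 0.00783 and the Cog change was 1.29 with an adjusted p of 0.0678, which missed the limit. The 2 changes differed by 0.39 (95% interval -0.72 to 1.50), so a difference between them was not shown.

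H2-M3, which presents peptides that begin with N-formyl methionine, was the only member called in both mutants. Its brighter probe (A_51_P469968) read 11.09, 11.77 and 11.98 in Schmid, 9.64, 10.07 and 9.51 in its wildtype, 11.53, 12.02 and 11.37 in Cog and 10.21, 9.42 and 9.80 in its wildtype. Every mutant array was above every wildtype array, and in each wildtype 2 of 3 arrays were well above background. The change was 1.87 ± 0.28 (log2, SE), a 3.66-fold change with an adjusted p of 0.00157 in Schmid and 1.83 ± 0.28 (log2, SE), a 3.56-fold change with an adjusted p of 0.009 in Cog. The difference between the 2 changes was 0.04 (95% interval -0.85 to 0.93). The second H2-M3 probe was not above background on any array.

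H2-T10 and H2-T22 encode class I molecules that hold no peptide and are ligands of gamma delta T cells. H2-T10 read 14.14, 13.26 and 13.10 in Schmid, 11.69, 11.76 and 11.56 in its wildtype, 12.32, 12.47 and 11.90 in Cog and 12.26, 12.80 and 12.71 in its wildtype. Its Schmid change was 1.83 ± 0.26 (log2, SE), a 3.55-fold change with an adjusted p of 0.00126. The brighter H2-T22 probe (A_51_P432544) read 12.32, 11.14 and 10.95 in Schmid, 10.56, 10.01 and 9.97 in its wildtype, 10.72, 11.25 and 10.24 in Cog and 10.86, 11.24 and 11.42 in its wildtype. For both genes the wildtype of the Schmid background was the lowest of the 4 groups, and Schmid replicate 1 was the highest array. The H2-T22 change of 1.29 (adjusted p of 0.03) was not called without Schmid replicate 1 (log2 change 0.87, adjusted p 0.0872) or without wildtype replicate 2 (log2 change 1.21, adjusted p 0.0972) or 3 (log2 change 1.19, adjusted p 0.0887). The H2-T10 probe also lists a transcript of H2-T22.

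H2-D4 and 4 genes of the Q region were also called higher in Schmid. H2-D4 read 11.37, 11.37 and 11.03 in Schmid, 10.21, 9.53 and 9.32 in its wildtype, 9.20, 9.53 and 9.80 in Cog and 9.40, 9.44 and 9.497 in its wildtype. It was well above background on all 3 Schmid arrays but on 1 of 3 in each other group, so the fold is against a level mostly not above background. The Schmid change was 1.57 ± 0.23 (log2, SE), a 2.97-fold change with an adjusted p of 0.00123. The H2-Q10 probe printed above read 13.40, 13.16 and 12.98 in Schmid, 12.38, 11.44 and 11.11 in its wildtype, 11.65, 11.89 and 11.96 in Cog and 12.19, 11.35 and 11.48 in its wildtype. Schmid did not overlap its wildtype and Cog did, and the probe changed in Schmid by 1.54 (adjusted p of 0.00681). The other 3 H2-Q10 probes, which list H2-Q10 alone, changed by 0.70, 0.06 and -0.20 and were not called. H2-Q10 encodes a secreted class I molecule made mainly by the liver.

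H2-Q7, of the Qa-2 family, read 13.33, 12.93 and 12.74 in Schmid, 12.20, 11.17 and 11.36 in its wildtype, 11.85, 11.89 and 11.59 in Cog and 12.27, 11.41 and 11.31 in its wildtype, and changed in Schmid by 1.42 (adjusted p of 0.00933). H2-Q2 read 13.95, 13.73 and 13.60 in Schmid, 12.91, 12.16 and 12.08 in its wildtype, 12.36, 12.56 and 12.61 in Cog and 12.72, 12.09 and 12.08 in its wildtype, and changed in Schmid by 1.38 (adjusted p of 0.00318). The brightest H2-Q1 probe (A_52_P582814) read 16.19, 15.68 and 15.75 in Schmid, 15.15, 14.36 and 14.46 in its wildtype, 13.93, 13.71 and 13.93 in Cog and 14.59, 14.28 and 14.21 in its wildtype, and changed in Schmid by 1.22 (adjusted p of 0.00368). In each of these 3 genes the Schmid arrays lay above their wildtype arrays, and replicate 1 was the highest array of that wildtype. Over the 25 heavy chain probes above background on all arrays of a group, the median deviation from the group mean (log2) was 0.36 on this array and between -0.19 and 0.18 on the other 11. Without it, 15 members were called higher in Schmid and 1 lower. The other 2 H2-Q1 probes were under the 2-fold limit, at 0.70 (adjusted p of 0.00357) and 0.90 (adjusted p of 0.0146). The brightest lies at chr17:33480880-33480939 (mm7) and lists no transcript that the RefSeq table gives to H2-Q1, while the others start at 33416924 and 33420381. H2-Q5 changed by 0.97, with an adjusted p of 0.0304 but under the 2-fold limit. H2-Q8 read 12.24, 13.02 and 12.52 in Schmid, 11.38, 11.77 and 12.15 in its wildtype, 11.20, 10.59 and 11.14 in Cog and 10.89, 11.48 and 11.48 in its wildtype. Schmid lay above its wildtype without overlap, with a change of 0.83 that was not called (adjusted p of 0.0524). Within the arrays of the first of 2 scan days, which hold the 3 Schmid arrays and wildtype replicates 1 and 2, 8 of the 13 Schmid calls remained. Those of H2-Q1, H2-Q7, H2-Q10, H2-T22 and H2-T23 did not, with log2 changes of 1.11, 1.32, 1.27, 1.19 and 1.66.

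**Figure D2:**
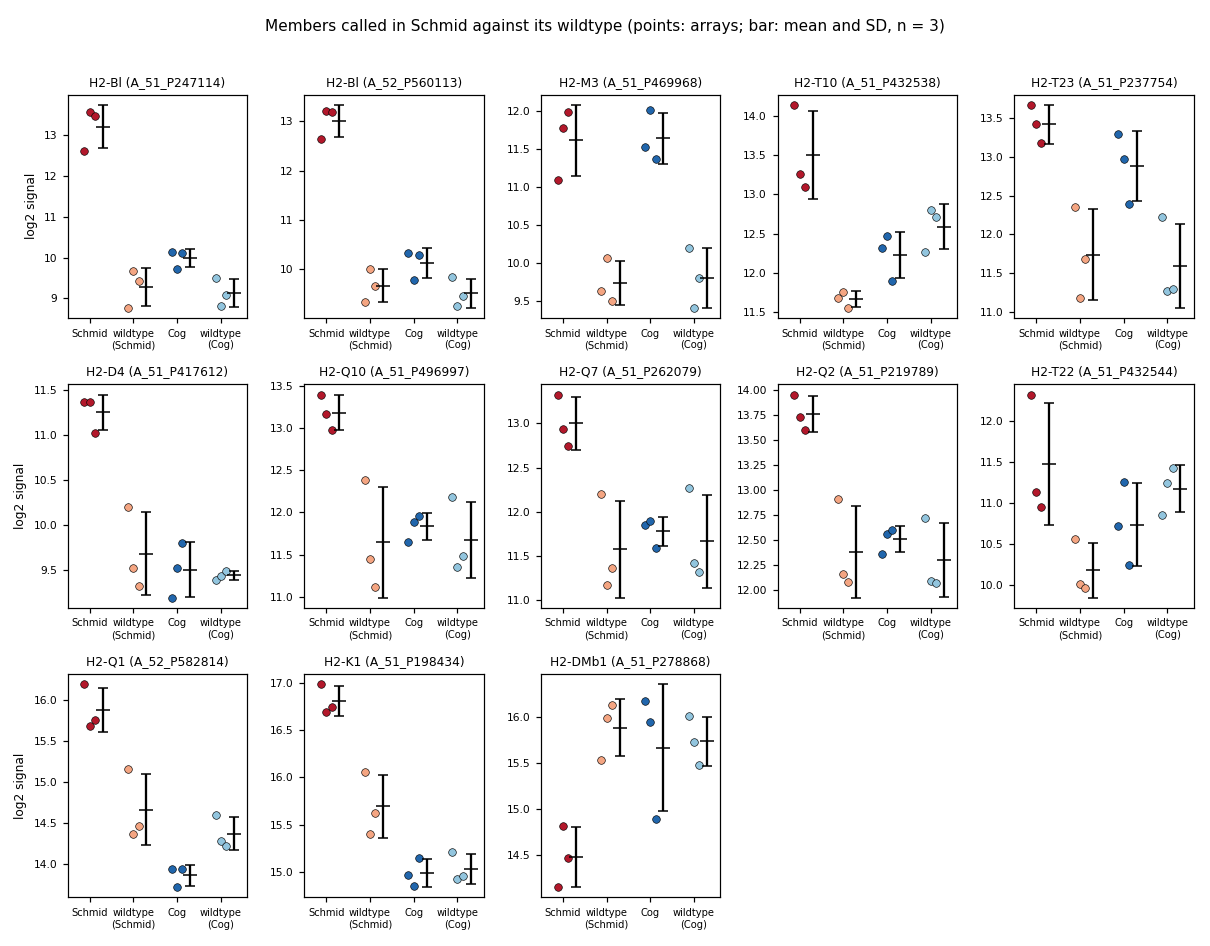
Log2 signal (y axis, a separate scale in each panel) of the 13 member probes called in Schmid, in order of their change, on each of the 12 arrays. Points are arrays and the bars to their right are the mean and SD of 3 arrays. Schmid arrays stand apart from their wildtype in every panel, H2-M3 is raised in Cog as well, and H2-DMb1 is the only panel in which Schmid is the lowest group.

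The partner chain and the loading genes were not called in either mutant. The brightest B2m probe (A_51_P129012) read 14.29, 14.74 and 14.85 in Schmid, 15.46, 14.61 and 14.79 in its wildtype, 13.43, 14.38 and 14.09 in Cog and 14.63, 14.78 and 14.46 in its wildtype. Schmid overlapped its wildtype, and the change of -0.33 had a 95% interval of -0.95 to 0.29. In Cog the change was -0.65 (adjusted p of 0.21), without overlap. A second B2m probe gave -0.26 in Schmid and -0.24 in Cog.

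The brighter probe of Tapbp, the gene of tapasin, read 13.38, 13.72 and 13.60 in Schmid, 15.05, 14.12 and 13.95 in its wildtype, 14.13, 13.96 and 14.68 in Cog and 15.34, 15.01 and 15.31 in its wildtype. Both mutants lay below their wildtypes without overlap, with log2 changes of -0.81 (adjusted p of 0.0598) and -0.96 (adjusted p of 0.0822), and neither was called. The second Tapbp probe gave -0.11 and -0.19. Tap1 was well above background on all arrays of no group, and read 9.52, 9.69 and 11.85 in Cog against a range of 9.26 to 9.82 on the other 9 arrays, so that Cog replicate 3 stood alone. Tap2 was above background on 3 of the 12 arrays.

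The immunoproteasome cuts many of the peptides that class I molecules present. Counted with the proteasome activator, 4 of its genes were measured. On the brightest probe of each, 2 were called lower in Schmid and none higher, where 4.69% of all probes were called lower. These were Psmb8 (log2 change -1.46, adjusted p 0.00478) and Psmb10 (log2 change -1.52, adjusted p 0.00787). In the list of peptide trimming and loading genes, 0 of 5 were called in Schmid. In Cog 3 were called higher on their brightest probes, against 1.56% of all probes, namely Calr, Canx and Pdia3, chaperones that also fold many other proteins. The dimmer probes of Canx changed in Cog by 0.50 and 0.35 and that of Calr by 0.73, and none of these was called. In Schmid, Calr changed by 0.84 (adjusted p of 0.00142) and Pdia3 by 0.93 (adjusted p of 0.0314), just under the 2-fold limit, and the test of the difference between the mutants called none of the 3 (adjusted p of 0.472, 0.247 and 0.254 for Calr, Canx and Pdia3). Of 11 MHC transcription regulators, Irf8 was called lower in Schmid on its brightest probe (log2 change -1.15, adjusted p 0.0446) and none in Cog. The share of all probes called lower in Schmid was 4.69%. This Irf8 probe was above background on 6 arrays. The dimmer Irf8 probe, above background on 7 arrays, changed in Schmid by 0.22 (adjusted p of 0.208), which was not called. C2ta was above background on 8 arrays and changed by 0.19 in Schmid and -0.47 in Cog, neither called. Of 5 genes, those of interferon gamma, its receptor and the kinases of the receptor, none was called in either mutant. Ifng, the gene of interferon gamma, was above background on no array.

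In the class II pathway, 1 of 16 probes was called lower in Schmid, against 4.69% of all probes, and none higher, and the median log2 change of the 16 was -0.33. H2-DMb1, the beta chain of the DM molecule, read 14.16, 14.82 and 14.46 in Schmid and 15.53, 15.99 and 16.13 in its wildtype, 16.17, 15.94 and 14.89 in Cog and 16.01, 15.72 and 15.47 in its wildtype. Schmid did not overlap its wildtype and the change was -1.40 ± 0.32 (log2, SE), a -2.64-fold change with an adjusted p of 0.0119, while Cog spanned its wildtype. Its partner chain H2-DMa read 11.28, 10.57 and 10.44 in Schmid, 11.33, 11.33 and 11.21 in its wildtype, 11.88, 11.39 and 10.86 in Cog and 11.16, 11.16 and 10.76 in its wildtype, and the Schmid change of -0.53 was not called (adjusted p of 0.176).

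Cd74 read 10.16, 10.22 and 10.28 in Schmid, 12.14, 10.85 and 10.57 in its wildtype, 10.33, 10.05 and 11.31 in Cog and 11.20, 10.64 and 10.56 in its wildtype. All Schmid arrays were below their wildtype, in which replicate 1 was the highest, and the change of -0.97 was not called (adjusted p of 0.111). Of the chains that present peptides, H2-Eb1 read 9.87, 9.83 and 9.80 in Schmid, 10.51, 9.95 and 10.21 in its wildtype, 10.50, 10.03 and 10.00 in Cog and 10.34, 10.27 and 10.16 in its wildtype. Its Schmid change of -0.39 was not called. H2-Aa was above background on 1 of 12 arrays on its brighter probe and H2-Ea on none. The brightest H2-Ab1 probe (A_52_P683598) read 13.72, 14.04 and 13.63 in Schmid, 14.23, 13.62 and 14.07 in its wildtype, 12.07, 12.43 and 12.70 in Cog and 13.11, 13.62 and 13.35 in its wildtype. Cog was lower than its wildtype without overlap, with a log2 change of -0.96 (adjusted p of 0.0351), which is under the 2-fold limit, and the other 3 H2-Ab1 probes changed in Cog by -0.28, -0.10 and 0.13. Cathepsin S (Ctss, log2 change -2.18, adjusted p 0.000806) and legumain (Lgmn, log2 change -1.37, adjusted p 0.00288), proteases of the class II route, were called lower in Schmid. They are 2 of the 5 genes of that list, where 4.69% of all probes were called lower.

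**Figure D3:**
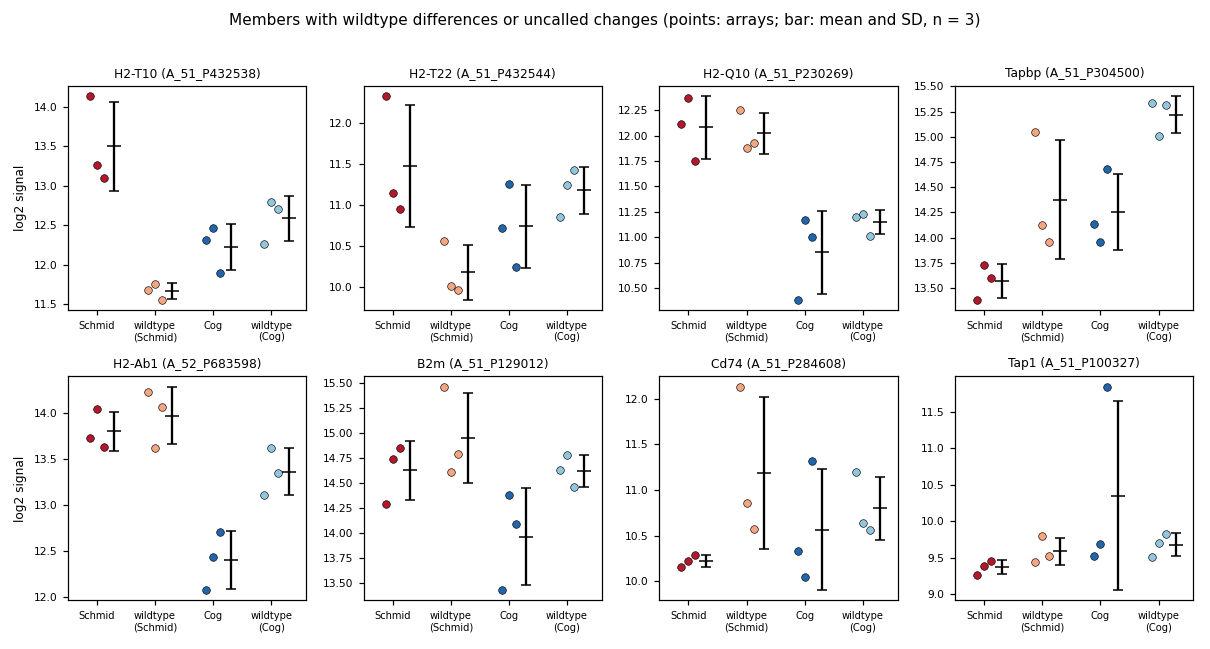
Log2 signal (y axis, a separate scale in each panel) of 8 member probes on each array. H2-T10 and H2-T22 were also called in Schmid, and the other 6 were called in neither mutant. Points are arrays and bars the mean and SD of 3 arrays. H2-T10, H2-T22 and H2-Q10 differ between the wildtype groups without overlap, and single high arrays are seen in Cd74 and Tap1.

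Some markers of other cell types were lower in Schmid than in its wildtype. The summed level (log2) of 4 leukocyte markers ranged from 11.87 to 11.89 in Schmid, 12.12 to 13.22 in its wildtype, 12.02 to 12.65 in Cog and 12.06 to 12.36 in its wildtype. Calls were counted on the brightest probe of each gene. Called lower in Schmid were 3 of 5 endothelial, 3 of 4 red cell, 2 of 5 B cell and 1 of 6 macrophage genes. No gene of these lists was called higher, where 4.69% of all probes were called lower and 5.78% higher. None of 4 leukocyte, 5 T cell, 3 dendritic cell, 5 neutrophil or 5 osteoclast genes was called. The macrophage call was Csf1r, while Cd14 and Cd68 changed by 0.02 each and the median of that list was -0.46. In the T cell list, with a median of -0.41, Cd3e was 0.88 higher (adjusted p of 0.00151), under the 2-fold limit. A dimmer probe of the leukocyte gene Coro1a, above background on all 12 arrays, was called lower in Schmid (log2 change -2.25, adjusted p 0.00774). On that probe Schmid ran from 9.61 to 9.70 and its wildtype from 11.26 to 13.02. The brighter Coro1a probe changed by -0.75, under the 2-fold limit. On their brightest probes Ptprc changed by -1.16, Cd53 by -0.50 and Laptm5 by 0.34, and none was called. The summed macrophage markers ranged from 13.22 to 13.40 in Schmid and 13.55 to 14.58 in its wildtype. Pecam1 and Cd209a, which mark endothelial and dendritic cells, were above background on no array on their brightest probes. The part of these cells in the class II values was not tested. In Cog, 1 of 5 T cell and 1 of 5 osteoclast genes were called lower, where 0.748% of all probes were. No gene of the other 7 marker lists of these cell types was called.

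In Cog cartilage H2-M3 was the single member called higher, 1.59% of the 63 against 1.56% of all probes, and none was called lower, against 0.748% of all probes. The median log2 change of the 38 heavy chain probes was 0.04. The direct comparison of Schmid with Cog called 12 members higher in Schmid and 1 lower, 19.0 and 1.59% of the members against 4.65 and 4.24% of all probes. Schmid arrays and Cog arrays come from different backgrounds, so this difference holds the difference between the backgrounds too. Relative to the 75th percentile of the processed signal, 15 members were called higher in Schmid and 23 lower, against 6.49 and 35.2% of all probes, a scale on which the median of all probes was 0.63 lower in Schmid than in Cog. H2-K1 was 1.82 higher in Schmid than in Cog (adjusted p of 0.000204), H2-Q8 1.62 (adjusted p of 0.00309) and H2-Ab1 probe A_52_P683598 1.40 (adjusted p of 0.00198). All Schmid arrays were scanned on the first day and all Cog arrays on the second, and only the wildtype of the Schmid background holds arrays of both days. With the scan day as a term, 3 of these 13 calls remained, those of H2-K1 and the overlapping H2-Bl probes, and the calls of H2-Q8 and H2-Ab1 were lost (adjusted p of 0.054 and 0.0941).

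The change in Schmid was also set against the change in Cog, each relative to its own wildtype. In this test 8 members were called higher, 12.7% against 4.38% of all probes, and none lower, against 5.88% of all probes. They were both overlapping probes of H2-Bl, H2-D4, H2-K1, H2-Q1, H2-Q2, H2-T10 and H2-T22. Relative to the 75th percentile of the processed signal, 1 member was called higher and 1 lower, against 1.87 and 6.02% of all probes. H2-T10 rose by 1.83 in Schmid and changed by -0.36 in Cog, a difference of 2.19 (adjusted p of 0.00437). For H2-D4 the difference was 1.50 (adjusted p of 0.0117) and for H2-Q1 1.72 (adjusted p of 0.0055).

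The wildtype groups were compared because haplotypes may differ between the backgrounds. No member was called, 0 of 63, against 0.233% of all probes called higher and 0.236% lower in the wildtype of the Schmid background. At an unadjusted p under 0.05 in limma, 13 of the 63 members and 14.1% of all probes passed. The smallest adjusted p of a member was 0.0985, for H2-Q10 probe A_51_P230269, which read 12.25, 11.88 and 11.93 in the wildtype of the Schmid background and 11.20, 11.23 and 11.01 in that of the Cog background, without overlap. It was 0.87 higher in the first, and the other 3 H2-Q10 probes gave -0.02, 0.05 and 0.47. H2-T10 and H2-T22 were lower there, with differences of -0.92 and -0.996, without overlap (adjusted p of 0.139 and 0.254). H2-K1 was 0.66 higher, also without overlap (adjusted p of 0.111), and the Tapbp difference was -0.84, with overlap. The 95% intervals of these differences were -1.51 to -0.33 for H2-T10, -1.81 to -0.18 for H2-T22 and 0.28 to 1.05 for H2-K1.

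The remaining members were dim or changed little. Of 11 probes of the M region, 9 were not above background on all arrays of any group, and H2-M10.2, above background on 11 of 12 arrays, changed by 0.04 in Schmid and 0.43 in Cog. H2-T3 and H2-T24 were above background on no array. H2-Ke2 and H2-Ke6 are named for their place in the complex and have no known role in presentation. They encode a prefoldin subunit and a steroid dehydrogenase and changed by 0.24 and 0.25 in Schmid, with no call.

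Probes of the same gene disagreed in several members. Of the 41 genes, 14 had 2 to 4 probes. In Schmid the changes of the 3 H2-K1 probes ran from -0.53 to 1.11, of the 4 H2-Q10 probes from -0.20 to 1.54, and of the 3 H2-Bl probes from 0.68 to 3.93. The 2 H2-T22 probes gave 1.29 and 0.36. Whether a probe reads another gene or another part of the transcript was not tested.

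**Figure D4:**
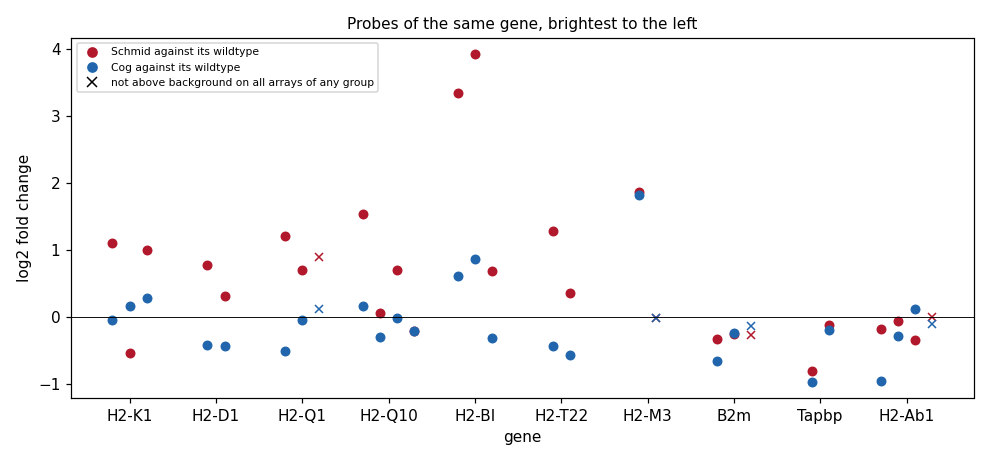
Log2 fold change (y axis) of each probe of 10 member genes in Schmid and in Cog, each against its wildtype. Probes of a gene run from the brightest on the left to the dimmest, and crosses mark probes not above background on all arrays of any group. Probes of H2-K1, H2-Q10 and H2-Bl spread widely in Schmid.

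Several heavy chain genes were called together in Schmid, and the 250 bases before their starts (RefSeq, GRCm38.p6) were read for 4 motifs on both strands. The table of promoters held 32 entries of 29 member genes among 32851, and H2-K1 has 2 of them, with windows that overlap. GAANNGAAA, a motif of the interferon regulatory factors, stood in 6 entries of 5 genes, against 6.31% of all entries. The core of the interferon-stimulated response element, GAAA and GAAA with any 2 bases between them, stood in 3 entries of 3 genes, against 2.98%. The kappa B motif GGGATTCCC stood in 4 entries of 3 genes, against 0.301%, and TGACGC, a half-site of the cyclic AMP response element family, in 4 entries of 3 genes, against 6.12%. In H2-K1, H2-D1 and H2-M3 the shorter interferon motif is followed by the half-site. These are shown on the strand of the gene with the motifs in capitals, and the promoters of H2-T23 and B2m, which of the 4 motifs hold only the interferon-stimulated core in this window, stand beside them.
H2-K1: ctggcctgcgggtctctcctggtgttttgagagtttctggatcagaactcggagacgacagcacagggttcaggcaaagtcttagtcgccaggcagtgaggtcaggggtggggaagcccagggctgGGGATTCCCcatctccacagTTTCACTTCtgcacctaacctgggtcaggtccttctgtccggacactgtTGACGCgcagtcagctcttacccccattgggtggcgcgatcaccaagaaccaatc
H2-D1: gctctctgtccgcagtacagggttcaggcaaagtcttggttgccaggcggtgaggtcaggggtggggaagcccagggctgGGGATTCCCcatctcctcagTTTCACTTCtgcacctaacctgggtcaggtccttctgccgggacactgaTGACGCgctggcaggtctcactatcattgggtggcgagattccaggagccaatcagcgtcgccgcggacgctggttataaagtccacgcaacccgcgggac
H2-M3: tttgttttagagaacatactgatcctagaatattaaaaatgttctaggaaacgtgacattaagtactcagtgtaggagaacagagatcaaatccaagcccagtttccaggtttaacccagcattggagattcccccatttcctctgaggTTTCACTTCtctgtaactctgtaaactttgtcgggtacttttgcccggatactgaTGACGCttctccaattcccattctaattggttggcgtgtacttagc
H2-T23: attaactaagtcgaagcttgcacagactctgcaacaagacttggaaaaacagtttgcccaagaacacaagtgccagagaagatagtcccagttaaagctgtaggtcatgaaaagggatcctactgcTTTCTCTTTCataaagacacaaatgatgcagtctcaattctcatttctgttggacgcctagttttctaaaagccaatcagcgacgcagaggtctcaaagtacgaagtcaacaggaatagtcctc
B2m: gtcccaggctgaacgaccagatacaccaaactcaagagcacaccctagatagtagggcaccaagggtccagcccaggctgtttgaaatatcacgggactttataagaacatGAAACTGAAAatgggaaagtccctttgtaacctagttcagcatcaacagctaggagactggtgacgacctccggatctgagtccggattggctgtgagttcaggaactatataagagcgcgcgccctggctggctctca
They lie at chr17:34000334-34000583 (minus strand), chr17:35262844-35263093 (plus), chr17:37269984-37270233 (plus), chr17:36032702-36032951 (minus) and chr2:122147437-122147686 (plus). H2-K1, H2-M3 and H2-T23 were called in Schmid, and H2-D1 and B2m were not. Among promoters not shown, those of H2-Q7 and H2-Q10 hold the shorter interferon motif and that of H2-T22 the core. These genes were called in Schmid as well. The promoter of H2-Q2, also called, holds none of the 4 motifs. H2-Bl, H2-D4, H2-Q1 and H2-T10, called higher in Schmid too, had no entry in the table of promoters and were not read. A match describes the letters only.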

How the data were processed

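For each of the 12 mice the authors deposited the scanner software's output (Agilent Feature Extraction 9.5.3), with the intensity of every spot and of its local background from a single-colour (Cy3) array of RNA amplified in 2 linear rounds. The authors also deposited their normalized log2 values as a series matrix, which was used as an alternative. Following the study's methods, normexp with an offset of 50 was applied to the intensities, control spots were dropped, arrays were quantile normalized, spots of 1 probe were averaged, and group means were fitted with limma 3.58.1 in R 4.3.3 on all 12 arrays. Spots flagged as outliers were left out, which kept 99.8% of spots. A probe was called at a Benjamini-Hochberg adjusted p of 0.05 or less and at least 2-fold. For a probe not above background in a group, the fold is a bound against the dimmest signal above background on each array. The members and gene lists were chosen with earlier results of these data known. Values on every array are given for classical class I, presentation and main class II genes above background in a group, and for other members called in any of the 5 comparisons. The gene lists cover MHC transcription regulators, the immunoproteasome, peptide trimming and loading, class II processing, and cell type markers. They also cover interferon gamma with its receptor and kinases, and class I-like genes outside the complex. Of these class I-like genes none of 7 was called in either mutant on the brightest probe, while a dimmer Mr1 probe was called higher in Schmid. Among chondrocyte markers, Ihh was called lower in both mutants. Gene names are those of the array design, of which 40 of 41 are in the RefSeq table used for promoters. Precision is limited by 3 arrays a group. The mice of a group are separate animals. Alternatives covered background correction, scaling, dim probes, array weights, slide, replicate number, scan day and single arrays. Scan day was added after seeing the data. Proliferative zone arrays and PCR were not analysed here.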

Additional observations from a re-analysis of the deposited data

Results flagged for a closer look

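The change in Schmid differed from the change in Cog, each against its own wildtype, in 8 member probes by limma's test of the difference. The differences (log2, Schmid change minus Cog change) were 2.73 and 3.07 for the overlapping H2-Bl probes A_52_P560113 and A_51_P247114, 2.19 for H2-T10, 1.73 for H2-T22, 1.72 for H2-Q1, 1.50 for H2-D4, 1.17 for H2-Q2 and 1.16 for H2-K1. The adjusted p values ran from 0.00106 for H2-Bl to 0.0472 for H2-T22. H2-T22 and H2-Q2 were lost when most single arrays were left out. H2-T10 and H2-T22 were also the members with the lowest level in the wildtype of the Schmid background relative to the other wildtype, at -0.92 and -0.996, differences that were not called (adjusted p of 0.139 and 0.254).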

How the results depend on the processing

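Of 846 alternative values of the 35 called changes, 748 stayed called, 98 were no longer called and none turned its direction. Main counts of called members were 13 in Schmid, 1 in Cog, 0 between the wildtypes, 13 between the mutants and 8 for the difference of changes. Treat against a 2-fold change left 2, 0, 0, 2 and 1. An adjusted p with no fold limit gave 21 in Schmid, 4 in Cog, 25 between the mutants and 14 for the difference. Array weights gave 4 in Cog, 2 between the wildtypes and 15 for the difference. The quantile normalized processed signal gave 4 in Cog and 21 between the mutants. The processed signal relative to the 75th percentile gave 38 between the mutants and 2 for the difference, and it moved the median of all probes by -0.40 in Schmid and 0.43 in Cog. Scaled normexp values gave 2 in Cog, with a median of all probes of -0.35 in Schmid. Slide as a random block gave 3 in Cog and 14 for the difference, at a consensus correlation of -0.122. Scan day as a term left 3 between the mutants, and arrays of the same scan day gave 8 in Schmid. The causes were not tested. Leaving out single arrays gave 11 to 16 in Schmid, 1 to 3 in Cog, 0 to 1 between the wildtypes, 11 to 13 between the mutants and 6 to 13 for the difference. The count in Cog was 3 without wildtype replicate 1 of the Cog background, 2 without wildtype replicate 1 of the Schmid background and 2 without Cog replicate 3, and the 13 for the difference and the 1 between the wildtypes came without wildtype replicate 1 of the Schmid background. The sample titles link single arrays of different groups only by a replicate number. With this number as a replicate block, 14 members were called in Schmid, 2 in Cog, 13 between the mutants and 10 for the difference, where H2-T22 was lost. Same-numbered arrays of Schmid and its wildtype correlated by 0.193, 0.171 and 0.066 across probes after removal of group means. Of these 6 arrays, 5 correlated best with their own number, a hint from the data. It was not particular to this pair. The 2 wildtypes gave 0.406, 0.047 and 0.190, with 3 of 6 best with their own number. Cog and its wildtype gave -0.116, 0.072 and -0.106, with 2 of 6. The 17 probes above background on no array limit what can be said of their genes.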
